A study of Mus musculus with 6 samples.

Results

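The hepatocyte transcription factors described here were 9 genes of the 55536 with deposited read counts: Hnf4a, Foxa1, Foxa2, Foxa3, Cebpa, Nr1h4, Nr1i2, Nr1i3 and Onecut1. They were taken by name as the core regulators of the adult hepatocyte. The RNA came from HCA-1 tumors, a mouse hepatocellular carcinoma (HCC) cell line implanted into the liver of syngeneic male C3H/HeNCrNarl mice aged 6 to 8 weeks. There were 3 libraries in the control group (numbers 5, 6 and 7), whose mice had received no nanoparticles, and 3 from mice given GOx-DOX-LGP (numbers 1, 2 and 5). GOx-DOX-LGP is a lipid-coated nanogel of gelatin and protamine that carries glucose oxidase (GOx), an enzyme that turns glucose and oxygen into gluconic acid and hydrogen peroxide, together with doxorubicin (DOX), a DNA-intercalating drug. It was injected into a vein on days 18, 19 and 20 per the labels, which also place the transcriptome analysis on day 17 after 3 h of circulation, so the interval between dosing and harvest cannot be taken from them. The study's methods describe harvest on the day after the last dose for tumor RNA used in RT-qPCR and give no day for the sequenced RNA. The comparison addressed how the treatment altered the transcriptome of the whole tumor. No library of the empty carrier or of a single agent was analysed here, so the effects of GOx, DOX and the carrier cannot be told apart.

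Hepatocyte identity rests on a small set of DNA-binding proteins that activate each other and many of the same liver genes. Foxa proteins open compacted chromatin at liver enhancers, Hnf4a, Cebpa and Onecut1 act there on genes for plasma proteins and metabolism, and the receptors Nr1h4, Nr1i2 and Nr1i3 adjust bile acid and drug handling to their ligands. Loss of Hnf4a and its partners is a known feature of poorly differentiated HCC.

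Each library held between 15529940 and 18401178 counted reads. Levels are given as reads per 1000000 (CPM) after scaling by the trimmed mean of M values (TMM), with factors from 0.569 to 1.24, and 3 reads corresponded to 0.132 to 0.323 CPM. The controls were not alike. Over the genes kept by the filter on low counts, control 5 correlated at 0.966 to 0.975 (Pearson, log2 CPM, across genes) with the GOx-DOX-LGP libraries, but at 0.730 with control 6 and 0.659 with control 7. Control 5 was thus more like the GOx-DOX-LGP libraries than like the other controls. Which of the controls are typical of untreated tumors, and whether the labels are right, was not tested. Summed over 21 genes for proteins that hepatocytes secrete, such as Alb, the level was 917 CPM in control 5, 163712 in control 6 and 252757 in control 7, against 1947 to 4746 in the GOx-DOX-LGP libraries, and none of the 21 genes was at 0 in all libraries. Alb alone was at 353, 73804 and 128244 CPM in these controls, in that order, against 733 to 1893 CPM under treatment. A sum over 6 proliferation markers ran the other way, with 885, 257 and 37.6 CPM in the same controls and 620 to 779 under treatment, and so did a sum over 6 cholangiocyte markers, with 7025, 556 and 206 CPM against 4744 to 7130. That sum was mostly Spp1, which other cells also make (6838, 463 and 178 CPM in the controls). Sox9 ran the same way, at 147, 17.6 and 10.4 CPM in the controls against 74.3 to 144 under treatment. Krt7, Epcam and Cftr, at lower levels, were also highest in control 5 among the controls. Krt19 was not, at 30.7, 69.6 and 13.0 CPM against 42.7 to 71.3. Sums over 6 endothelial, 6 T cell and 6 macrophage markers ran from 109 to 376, 25.5 to 74.3 and 386 to 512 CPM in control and from 80.0 to 96.1, 103 to 148 and 419 to 908 CPM under treatment. All endothelial markers were lowest in control 5 among the controls. Stab2, for example, was at 8.51, 86.8 and 93.9 CPM against 5.05 to 7.51. Of the macrophage markers, Clec4f and Vsig4 were likewise lowest there. Clec4f was at 8.16, 96.8 and 101 CPM against 3.33 to 12.5. Vsig4 was at 5.05, 37.9 and 48.4 CPM against 4.73 to 10.2. The other macrophage markers were lowest in control 7 among the controls. A sum over 6 fibroblast and stellate markers ran from 983 to 5571 CPM in control and from 2102 to 6489 CPM under treatment, but its stellate member Lrat was at 2.28, 38.2 and 37.1 CPM against 1.32 to 2.77. In bulk RNA, fewer hepatocytes and less RNA per hepatocyte cannot be told apart, and the part of host liver in each tumor sample was not tested, nor that of these cell types in the results below. For this reason the comparisons are given for all 6 libraries, without control 5, and without controls 6 and 7.

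The promoters of the members that the results turn on are shown first, because Hnf4a has alternative starts that gene counts merge and because Foxa1 and Foxa3, relatives with the same type of DNA-binding domain, had different patterns of level. The RefSeq promoter table on GRCm38.p6 held all 9 members, with 12 starts. For each, the 250 bases before the start were searched on both strands for 7 short motifs, and the sequences below run 5′ to 3′ on the strand of the gene, leave out bases in annotated exons, and have matches in capitals. The upstream start of Hnf4a (plus strand, chr2:163506607-163506807, ending 49 bases before the start) held ATCAAT, the core bound by Onecut proteins. The downstream start (plus strand, chr2:163546943-163547154) held 2 copies of GTTAAT, the core bound by Hnf1 proteins, on the opposite strand. In Foxa1 (minus strand, chr12:57546122-57546361, ending 10 bases before the start) the capitals mark the Foxa core TGTTTAC on the opposite strand, and in Foxa3 (minus strand, chr7:19023540-19023789) a TATA box, TATAAA.
Hnf4a upstream start: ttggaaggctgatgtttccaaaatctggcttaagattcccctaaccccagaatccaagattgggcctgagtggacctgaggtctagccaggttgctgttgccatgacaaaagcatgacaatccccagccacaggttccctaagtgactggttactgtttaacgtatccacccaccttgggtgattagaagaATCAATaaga
Hnf4a downstream start: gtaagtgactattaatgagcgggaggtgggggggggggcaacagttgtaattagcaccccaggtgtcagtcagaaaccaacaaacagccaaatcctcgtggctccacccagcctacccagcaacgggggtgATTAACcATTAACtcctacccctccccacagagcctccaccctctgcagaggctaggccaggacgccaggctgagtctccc
Foxa1: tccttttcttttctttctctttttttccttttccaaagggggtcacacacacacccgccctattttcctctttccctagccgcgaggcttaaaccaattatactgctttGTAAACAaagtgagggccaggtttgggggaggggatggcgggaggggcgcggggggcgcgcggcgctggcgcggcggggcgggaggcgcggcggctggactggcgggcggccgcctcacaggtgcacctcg
Foxa3: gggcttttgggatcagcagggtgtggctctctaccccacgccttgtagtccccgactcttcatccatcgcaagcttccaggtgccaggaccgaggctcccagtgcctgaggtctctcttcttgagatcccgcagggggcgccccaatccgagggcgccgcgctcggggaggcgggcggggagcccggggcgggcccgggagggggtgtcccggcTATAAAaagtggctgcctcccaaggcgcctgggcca

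The TATA box of Foxa3 began 36 bases before the start, and that of Cebpa 30 bases before it. TATAAA occurred in 3 of the 12 member windows and in 12.4% of all 32851 windows of the same length. The Foxa core was present in the Foxa1 window alone, 141 bases before the start, against 3.17% of all windows. GTTAAT was present in 3 member windows, those of the downstream Hnf4a start, 1 of 3 Foxa2 starts and Nr1h4, against 6.43%, and ATCAAT in 2, the upstream Hnf4a start and another Foxa2 start, against 6.72%. The nuclear receptor core AGGTCA occurred in the Nr1h4 window, against 14.0% of all windows. The longer HNF4 site CAAAGTCCA and the CEBP core TTGCNNAA were in 0 of the 12 windows, against 0.384% and 9.56%, which says only that these letters were not there. The windows also differed in base composition. Onecut1 (71.6% GC, 31 CpG), Foxa3 (68.8%, 18), Cebpa (66.4%, 22) and Foxa1 (62.0%, 21) were above the median of all windows, 52.4% GC and 6 CpG, while Nr1i2 (44.0%, 2), Nr1h4 (44.4%, 5) and the upstream start of Hnf4a (51.2%, 3) were below it. The downstream start of Hnf4a had 57.6% GC and 4 CpG.

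Across the tumors, 8 of the 9 factors had the same order of levels. Each was highest in control 7, next in control 6, and far lower in control 5 and in all 3 GOx-DOX-LGP tumors, while Foxa1 was highest in control 5. Control 5 lay so close to the treated tumors that the groups overlapped for all 9 members, and 0 of the 9 separated the groups, where 17.2% of the 15374 genes kept by the filter on low counts did so in either direction.

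**Figure D1:**
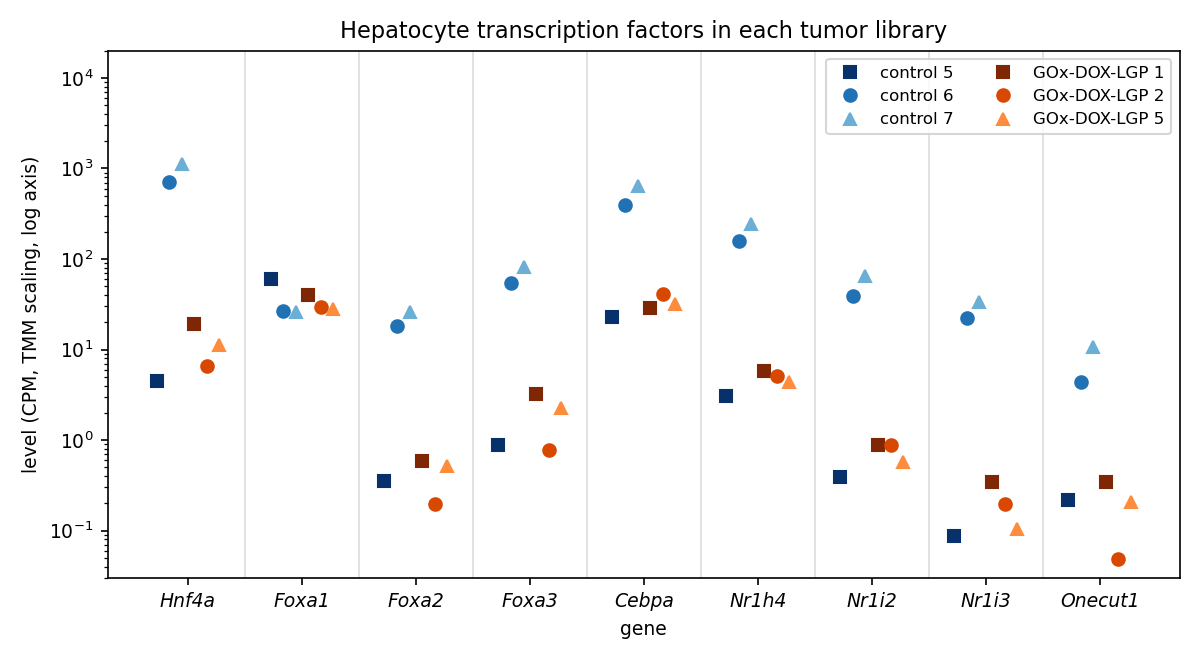
Level of each of the 9 factors in every library, in CPM on a log axis, with 1 point per library and the group shown by color. The points of controls 6 and 7 stand above the rest for every factor except Foxa1, where control 5 is the highest at 60.8 CPM.

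Hnf4a, the nuclear receptor that acts most broadly on hepatocyte genes (chromosome 2, 163506808 to 163572910, plus strand, GRCm38), was measured at 4.52, 717 and 1114 CPM in the controls (numbers 5, 6 and 7, in that order here and below) and at 19.2, 6.56 and 11.3 CPM in the treated tumors (1, 2 and 5). The lowest of the 6 values was thus in a control, and control 6 was 37.4 times as high as the highest treated tumor. The means were 612 ± 562 CPM (SD, n = 3) in control and 12.4 ± 6.37 CPM (SD, n = 3) under GOx-DOX-LGP, and the groups overlapped (exact permutation test, two-sided, p = 0.4, where 3 against 3 cannot go below 0.1). Read counts sum over the gene, so isoforms from the starts shown above could not be measured apart, and the bases after the downstream start were not found in a GENCODE M21 transcript of the gene.

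The Foxa proteins bind the same DNA core, and their genes lie on 3 chromosomes. Foxa1 (chromosome 12, 57540628 to 57546916, minus strand) was measured at 60.8, 26.6 and 25.9 CPM in the controls and at 39.8, 29.5 and 28.4 CPM in the treated tumors. Its 6 values lay within 2.35-fold of each other, with means of 37.8 ± 20.0 and 32.6 ± 6.32 CPM (SD, n = 3 each, exact permutation p = 1). All 3 treated tumors sat between control 5 and the other controls. Foxa2 (chromosome 2, 148042877 to 148046969, minus strand), needed early in liver development and in fasting metabolism, was measured at 0.351, 18.0 and 25.9 CPM in the controls and at 0.593, 0.196 and 0.520 CPM in the treated tumors. The low values rest on 4 to 12 reads, and the exact Poisson intervals of control 5 and the treated tumors overlap. Foxa3 (chromosome 7, 19013284 to 19023538, minus strand), the member of the family that is most abundant in adult liver, was measured at 0.877, 54.4 and 81.2 CPM and at 3.21, 0.784 and 2.24 CPM. For both Foxa2 and Foxa3, the measured level of GOx-DOX-LGP 2 was below control 5 and those of GOx-DOX-LGP 1 and 5 were above it (exact permutation p = 0.3 for each). For Foxa2 this order is not resolved, given the overlapping intervals. For Foxa3 the order of GOx-DOX-LGP 2 and control 5 is not resolved either. The Foxa3 level in GOx-DOX-LGP 2 rests on 16 reads, with an exact Poisson interval of 0.448 to 1.27 CPM that holds the control 5 value.

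Because the patterns of the Foxa genes differed, so did the make-up of their transcripts. Divided by exon length (CPM per kb) and summed, Foxa1 made up 96.9% of the Foxa total in control 5, 18.9% in control 6 and 13.3% in control 7, against 86.8%, 95.0% and 86.6% in GOx-DOX-LGP 1, 2 and 5. Foxa3 made up 2.28%, 63.1% and 68.0% in the controls and 11.4%, 4.12% and 11.2% under treatment. Foxa2 stayed below 20% everywhere, at 0.785%, 17.9% and 18.7% against 1.81%, 0.885% and 2.23%. Foxa1 was thus the main Foxa transcript in control 5 and in every treated tumor, and Foxa3 in controls 6 and 7. The mean Foxa1 share was 43.1 ± 46.7% in control and 89.5 ± 4.80% under GOx-DOX-LGP (SD, n = 3 each). The difference of 46.4 percentage points was smaller than the SD of the controls. The exact permutation test of the group means gave p = 0.4. The difference was 73.3 points without control 5 and 31.5 points without control 7. The Foxa total itself was 18.9, 42.3 and 58.6 CPM per kb in the controls and 13.8, 9.35 and 9.84 in the treated tumors, so it varied far less than the level of Foxa3.

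**Figure D2:**
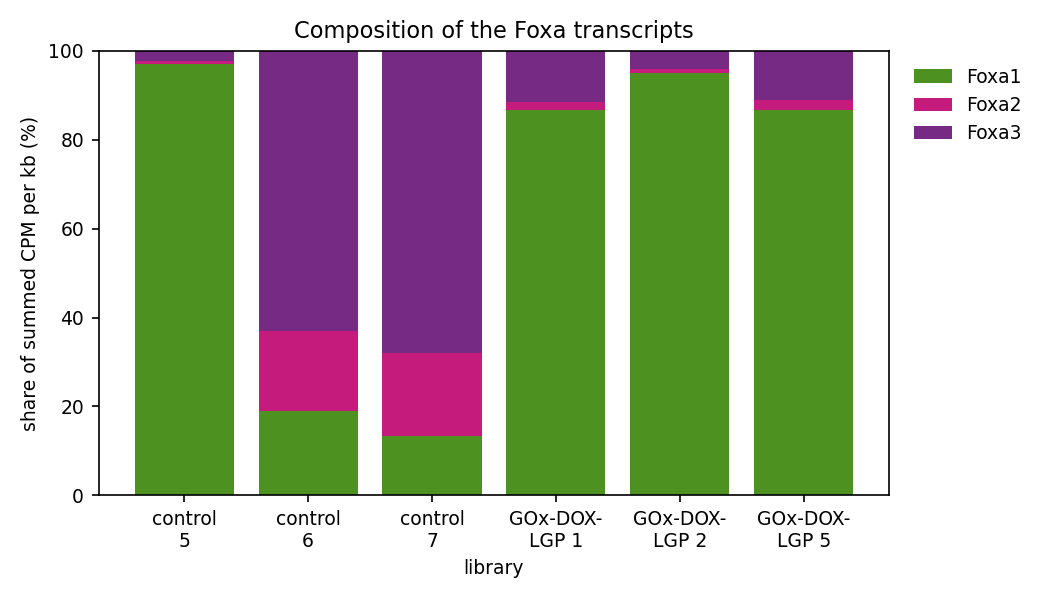
Share of Foxa1, Foxa2 and Foxa3 in their summed CPM per kb (vertical axis, percent) in each of the 6 libraries, as stacked bars without error bars since each bar is 1 library. Foxa1 fills 86.6% to 96.9% of the bars of control 5 and the GOx-DOX-LGP tumors and 18.9% and 13.3% of those of controls 6 and 7.

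Cebpa, a basic leucine zipper factor that drives metabolic genes and restrains proliferation of hepatocytes (chromosome 7, 35119293 to 35121928, plus strand), had the same order of levels with a smaller span. It was measured at 23.0, 397 and 642 CPM in the controls and at 29.0, 40.8 and 31.7 CPM in the treated tumors. The treated tumors lay within 1.40-fold of each other and all were above control 5, and control 6 was 9.73 times as high as the highest of them, the smallest such ratio of the 8 factors with this pattern. Its means were 354 ± 312 and 33.8 ± 6.15 CPM (SD, n = 3 each, exact permutation p = 0.4).

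The 3 ligand-activated receptors had the pattern of Hnf4a. Nr1h4, the bile acid receptor FXR (chromosome 10, 89454234 to 89533585, minus strand), was measured at 3.03, 156 and 245 CPM in the controls and at 5.73, 5.05 and 4.37 CPM in the treated tumors, the latter within 1.31-fold of each other. Nr1i2, the xenobiotic receptor PXR (chromosome 16, 38248323 to 38294824, minus strand), was measured at 0.395, 38.9 and 64.4 CPM and at 0.890, 0.882 and 0.572 CPM. Nr1i3, the constitutive androstane receptor CAR that also responds to drugs (chromosome 1, 171213970 to 171220701, plus strand), was measured at 0.0877, 22.1 and 33.4 CPM and at 0.346, 0.196 and 0.104 CPM. For each receptor all 3 treated tumors were far below controls 6 and 7 and near control 5 (exact permutation p = 0.4 for each). They were above control 5 for Nr1h4, while for Nr1i2 and Nr1i3 the exact Poisson intervals of control 5 and the treated tumors overlap. The low Nr1i3 values rest on 2 to 7 reads, and a count of 2 has an exact 95% Poisson interval of 0.242 to 7.22 reads, for counting error only. Exons of Tomm40l, on the opposite strand, overlap 74.9% of the exon bases of Nr1i3, and without known strand use the reads of the pair cannot be told apart there.

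Onecut1, also called HNF6, a factor shared by hepatocytes and bile ducts (chromosome 9, 74861921 to 74891781, plus strand), had the lowest level of the 9 per kb in controls 6 and 7. It was measured at 0.219, 4.41 and 10.8 CPM in the controls and at 0.346, 0.0490 and 0.208 CPM in the treated tumors, where it rests on 7, 1 and 4 reads (exact permutation p = 0.2). Its level is uncertain, because 52.8% of its exon bases overlap the exons of Gm20649 on the same strand.

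Per kb of exon, the 9 factors summed to 30.1, 430 and 675 CPM per kb in the controls and to 31.8, 28.8 and 26.4 in the treated tumors. The make-up of that sum followed the same split. In controls 6 and 7, Cebpa (34.9% and 36.1%) and Hnf4a (34.5% and 34.2%) led, and Foxa1 was 1.86% and 1.16%. In control 5, Foxa1 was 60.8%, Cebpa 29.0% and Hnf4a 3.11%. In the treated tumors Foxa1 was 37.7%, 30.9% and 32.3%, Cebpa 34.6%, 53.8% and 45.6%, and Hnf4a 12.5%, 4.73% and 8.89%. Cebpa was thus first or next to first in every library, while the ranks of Hnf4a and Foxa1 differed between libraries.

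Across all genes, edgeR's quasi-likelihood test with Benjamini-Hochberg adjustment called 0 of the 7 members kept by its filter lower in GOx-DOX-LGP at an adjusted p under 0.05, with 0% of the 15374 genes tested called lower. At an unadjusted p under 0.05, 6 of the 7 were lower, against 14.6% of all genes. Their log2 fold changes were -5.63 (SE 1.75) for Hnf4a, -5.05 (SE 1.46) for Foxa2, -4.45 (SE 1.48) for Foxa3, -3.39 (SE 1.08) for Cebpa, -4.74 (SE 1.39) for Nr1h4 and -5.45 (SE 1.59) for Nr1i2, each with an edgeR adjusted p of 0.247. Foxa1 had a log2 fold change of -0.22 (SE 0.39, edgeR adjusted p = 0.754), and its sign turned with library totals as the scaling (0.12). In a fit without the filter, Nr1i3 and Onecut1 had log2 fold changes of -6.26 and -4.51 with an edgeR adjusted p of 0.184. The median over the 7 members was -4.74, where that of all genes was 0.02. The other tools gave other counts. DESeq2 called 8 of 9 members lower, and 8.86% of all genes. Of these 8, 6 were among the 7 members kept by the edgeR filter. The others, Nr1i3 and Onecut1, did not pass it and have most of their reads in controls 6 and 7, where they are high. Limma voom with sample weights called 6 of 7 members lower, and 30.9% of all genes. Foxa1 was not called by any of the 3 tools.

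Within edgeR, the call turned on control 5, and the direction of most members on controls 6 and 7 together. Leaving out control 6 or control 7 alone changed neither, with 0 members called and a median log2 fold change of -4.63 and -3.98. Without control 5, edgeR called 8 of 9 members lower, in a fit that called 25.5% of all genes lower and 22.2% higher. Of these, 6 were among the 7 members that the filter kept with 6 libraries. Nr1i3 and Onecut1 passed it here through controls 6 and 7, where they are high, and so had to differ. The log2 fold changes were -6.18 (SE 0.50, edgeR adjusted p = 0.000105) for Hnf4a, -3.91 (SE 0.29, 7.82e-05) for Cebpa, -5.28 (SE 0.26, 4.6e-05) for Nr1h4 and -6.92 (SE 0.43, 5.32e-05) for Nr1i3, and the other 4 lay between -6.00 for Nr1i2 and -4.99 for Foxa3. Foxa1 was at 0.34 (SE 0.21, edgeR adjusted p = 0.224), the opposite sign to the fit over 6 libraries. With control 5 as the only control, an alternative chosen after seeing the data in which that library is assumed to vary like the treated ones, edgeR called 0 of 16849 genes, 921 of them with an unadjusted p under 0.05. There the log2 fold changes were 1.47 (SE 0.62) for Hnf4a, 1.25 (SE 0.86) for Foxa3, 0.99 (SE 0.74) for Nr1i2, 0.75 (SE 0.39) for Nr1h4, 0.57 (SE 0.27) for Cebpa, 0.32 (SE 0.95) for Foxa2 and -0.89 (SE 0.25) for Foxa1, with edgeR adjusted p-values of 0.885 to 0.968. So 6 of 7 members had the opposite sign to the fit over all libraries.

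**Figure D3:**
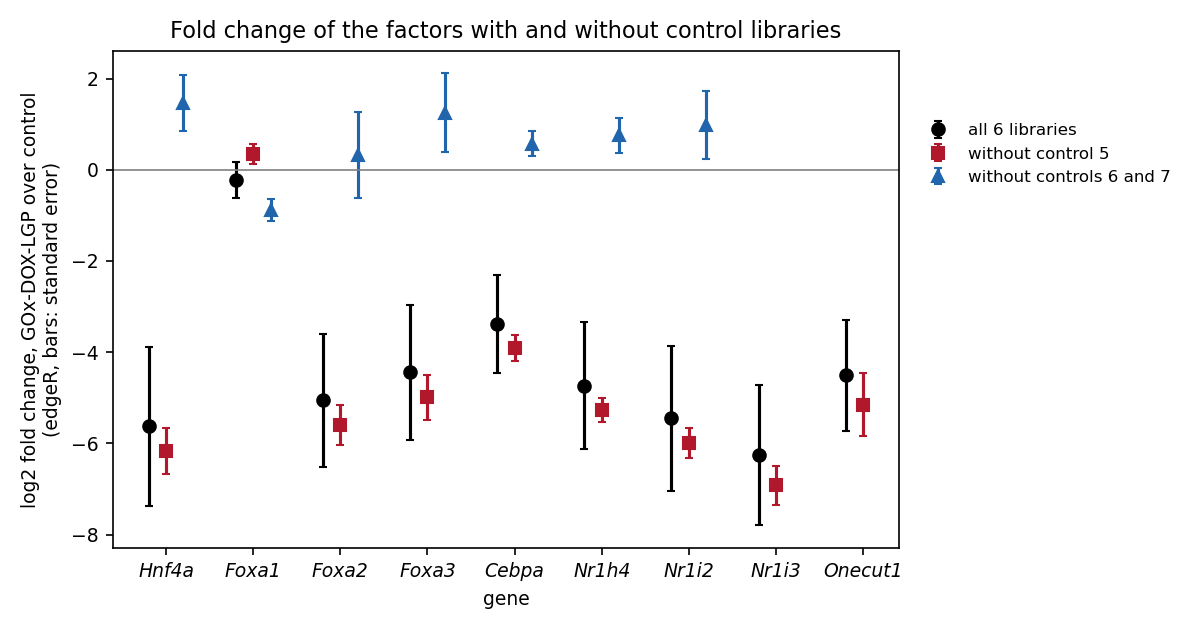
Log2 fold change of each factor, GOx-DOX-LGP over control, with SE bars, from edgeR over all 6 libraries, without control 5, and without controls 6 and 7. Nr1i3 and Onecut1 come from the fit without a filter for all 6 libraries and have no value without controls 6 and 7, and Hnf4a moves from -5.63 to -6.18 and to 1.47 across the 3 fits.

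The level of most factors moved with the products of hepatocytes, and Hnf4a did so most closely. The mean log2 CPM of the 21 secreted protein genes spanned 7.87 log2 units over the libraries, and that of Hnf4a 7.91. The log2 ratio of Hnf4a to that mean was -2.43, -2.56 and -2.40 in the controls and -2.75, -2.99 and -2.76 in the treated tumors, a range of 0.60. It was lower in all 3 treated tumors than in all 3 controls, with a difference in means of -0.37 (exact permutation p = 0.1, the smallest that 3 against 3 can give). For every other member this ratio overlapped between the groups (exact permutation p of 0.3 or above). Without adjustment for the members tested, the value for Hnf4a alone is weak. How many of all genes would separate the groups on this ratio was not counted. Against Alb alone the groups overlapped and the difference was -0.05 (exact permutation p = 0.9). As plain read ratios, there were 12.8, 9.72 and 8.68 Hnf4a reads per 1000 Alb reads in the controls and 10.1, 8.95 and 10.7 in the treated tumors.

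The other factors kept less to the secreted proteins. The range of the same log2 ratio over the 6 libraries was 1.40 for Nr1i2, 1.52 for Nr1i3, 1.62 for Foxa3, 1.77 for Nr1h4 and 2.13 for Foxa2, and 3.65 for Onecut1 with its few reads. Cebpa, well measured in every library, had a range of 3.30, from -0.12 in control 5 and -0.38 in GOx-DOX-LGP 2 to -3.42 in control 6. In reads per 1000 Alb reads, Cebpa was at 65.2, 5.37 and 5.01 in the controls and at 15.3, 55.6 and 29.9 in the treated tumors, so its ratio was highest in the libraries with the lowest secreted proteins. For Foxa1 the range was 9.10, from 1.28 in control 5 to -7.81 in control 7. The prior count added before logs raises, by construction, the ratio of genes with few reads.

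**Figure D4:**
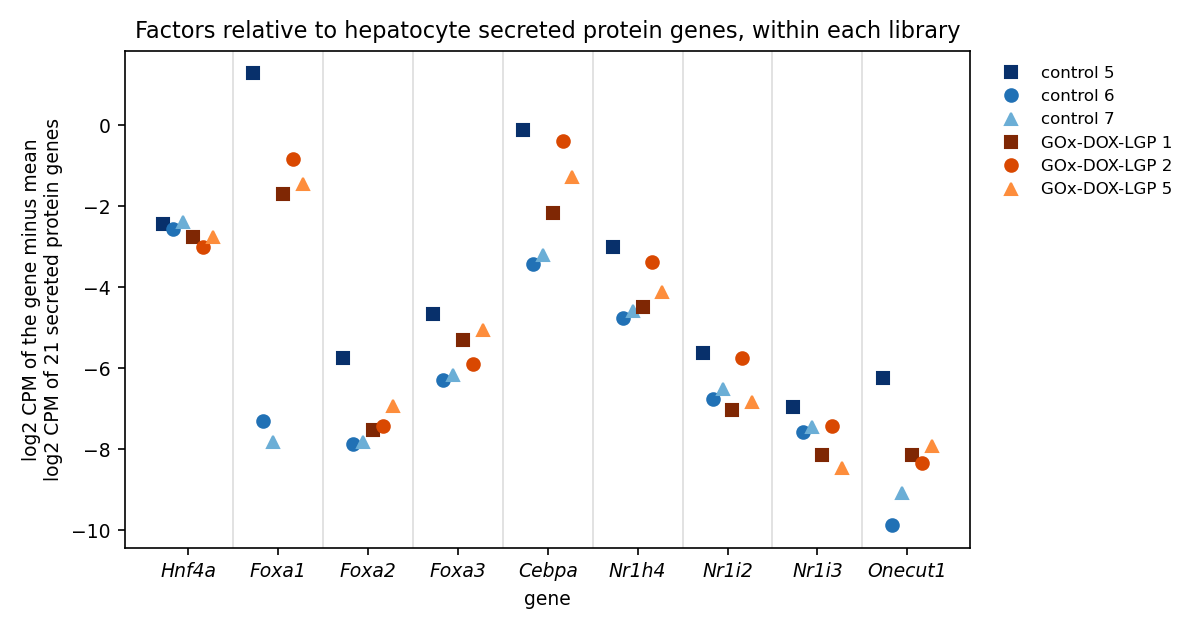
Log2 ratio of each factor to the mean log2 CPM of 21 secreted protein genes, with 1 point per library. The Hnf4a points span 0.60 log2 units, the Cebpa points 3.30 and the Foxa1 points 9.10.

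Of the 15373 other genes kept by the filter, those whose profile over the 6 libraries was most like that of Hnf4a, by the root mean square difference of centred log2 CPM, were Nags (0.118), Slc17a3 (0.123), Rbp4 (0.129), Gm5524 (0.131) and Hsd17b6 (0.131). Nags makes the activator of the first step of the urea cycle, and Rbp4 carries retinol in plasma. Among members, Nr1i2 ranked 321 in that order with a difference of 0.58, Foxa3 346, Foxa2 391, Nr1h4 396 and Cebpa 694. Foxa1 ranked 10398, with a difference of 3.48.

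Most genes known as targets of the factors were low in the same tumors. In edgeR over 6 libraries none of the lists below had a called gene, and counts are therefore given at an unadjusted p under 0.05, without control 5, and by DESeq2, over the genes that the filter kept with 6 libraries. Genes added without control 5 pass through controls 6 and 7 and had to differ, so they are left out. Over all genes tested, 14.6% were lower at an unadjusted p under 0.05. Without control 5, 25.5% of 16249 genes were called lower and 22.2% higher, and DESeq2 called 8.86% of 17812 genes lower. These shares also stand beside the lists in the paragraphs that follow. The shares without control 5 and by DESeq2 cover all genes tested in those fits, a wider set than the genes counted in the lists. All the lists were chosen with earlier results of these data known. All 11 Hnf4a targets were lower at an unadjusted p under 0.05, called lower without control 5, and called lower by DESeq2, with a median log2 fold change of -5.57 over 6 libraries. The largest differences were in Otc (-6.89), a urea cycle enzyme, and in Apoa2 (-6.11) and Apob (-5.86), lipoprotein proteins. For Cebpa, 6 of 6 targets behaved likewise, led by Cps1 (-6.82), Pck1 (-6.74) and Gys2 (-6.41), enzymes of urea, glucose and glycogen synthesis. Of 7 Foxa targets, led by Tat (-7.19), a tyrosine-degrading enzyme, all 7 were lower at an unadjusted p under 0.05 and without control 5, and 5 by DESeq2. All 5 Onecut1 targets were lower in each of these counts, with G6pc (-5.57), Slc2a2 (-5.35) and Ttr (-5.35) at the head. The lists share genes, such as Ttr, and the fold changes are no measure of what any single factor did.

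The receptor lists had the same direction with exceptions. Of 9 genes listed under Nr1h4, not all of them bile acid genes, 5 passed the filter. All 5 were lower at an unadjusted p under 0.05, with a median of -5.98. Abcb11 (-6.64), the bile salt export pump, Slc27a5 (-6.54) and Baat (-5.98), which conjugate bile acids, led them. These 5 were also called lower without control 5 and by DESeq2. Of 12 drug metabolism genes under Nr1i2 and Nr1i3, 10 were kept, of which 8 were lower at an unadjusted p under 0.05, 9 were called lower without control 5, and 7 were called lower by DESeq2. The other, Abcb1a, a drug efflux pump named after its values were seen, was at 81.0, 5.43 and 7.10 CPM in the controls and at 48.2, 45.5 and 28.4 CPM in the treated tumors, and was called higher without control 5 (log2 fold change 2.74) but not over 6 libraries (0.38, edgeR adjusted p = 0.837). Cyp2c29 (-7.45), Ces2a (-6.81) and Ugt1a1 (-6.68) led these, and each belongs to a family of near-identical or overlapping genes, so their counts are uncertain.

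Most other liver transcription factors had the same direction over 6 libraries, with exceptions. Of 20, 18 were tested, with 11 lower and 1 higher at an unadjusted p under 0.05 and a median log2 fold change of -2.09. Of the 18, 14 were called lower without control 5 and 9 by DESeq2. Ppara, the receptor that drives fatty acid oxidation, was measured at 0.395, 124 and 177 CPM in the controls and at 3.02, 1.42 and 1.14 CPM in the treated tumors (-5.75). Hlf (-5.73), a factor of the circadian output, and Nr5a2 (-5.15), which acts on bile acid synthesis, were likewise highest in controls 7 and 6. The partners and coregulators of the members had smaller differences as a list. Of 15, 14 were tested with a median of -0.11, and 4 were lower at an unadjusted p under 0.05. Of the 14, 5 were called lower and 1 higher without control 5, and 3 lower by DESeq2. Rxra, the partner with which Nr1h4, Nr1i2 and Nr1i3 bind DNA, was measured at 54.0, 352 and 538 CPM in the controls and at 60.8, 61.2 and 44.1 CPM under treatment (-2.51). The coactivators Ppargc1b (-2.65) and Ppargc1a (-2.04) had the other large differences among the genes kept. Rxrg, a further receptor partner that was not kept and is named after its values were seen, was at 0.0439, 6.19 and 8.72 CPM in the controls and at 0.247, 0.196 and 0.312 CPM under treatment.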

How the data were processed

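The deposited files gave raw read counts per gene for 6 libraries, and a table of normalized signal. The authors' normalized signal was the raw count divided by 1 size factor per library, and it was used to pair gene identifiers with symbols and to check the columns. The study's methods name TopHat and HTSeq, while the submitters' processing notes list Trimmomatic 0.38, HISAT2 2.1.0 and featureCounts 2.0.0. The build, annotation and strand setting are not given in the sources used here, and all 55536 identifiers were found in GENCODE M21 (GRCm38), which gave coordinates and exon lengths. Nothing beyond the library numbers shows separate animals, so p-values measure the spread between these libraries.

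From the deposited counts, genes were filtered with filterByExpr, scaled by TMM and tested with edgeR 4.0.16 (quasi-likelihood, Benjamini-Hochberg adjustment, threshold 0.05) in R 4.3.3. The SE is the log2 fold change divided by the square root of F. The group labels alone defined the comparison. DESeq2 1.42.0, limma 3.58.1 voom with sample weights, other scalings and filters, and each library left out were alternatives. Log2 CPM used a prior count of 2. Single values were compared by exact two-sided permutation tests. Scripts were tested on simulated data. Motifs were searched in RefSeq promoters, where the bases after the start lay in a transcript of the gene for 11 of 12 member starts, all but the downstream start of Hnf4a.

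The members and gene lists were chosen with earlier results of these data known. Named genes were the 9 members, the 3 genes of each transcription factor, partner and target list with the largest absolute log2 fold change, Alb, Ttr and Apoa1, and the 5 genes most like Hnf4a. Intervals and floors cover counting error only.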

Additional observations from a re-analysis of the deposited data

How the results depend on the processing

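The count of genes called was the result that depended most on the processing. Over all genes, edgeR called 0 (2685 with an unadjusted p under 0.05), DESeq2 1680 and voom with sample weights 9254, and leaving out 1 library each in turn gave 0 to 7745, the last without control 5. Of the members, edgeR called 0, DESeq2 8 and voom 6, and leaving out 1 library gave 0 to 8, the last without control 5. Both counts of 8 held 6 of the 7 members that the filter kept with 6 libraries. The median log2 fold change of the members was -4.74 and became 0.75 without controls 6 and 7, as did the sign of Hnf4a (1.47), Foxa2 (0.32), Foxa3 (1.25), Cebpa (0.57), Nr1h4 (0.75) and Nr1i2 (0.99). Foxa1 (-0.22) became 0.42 with voom, 0.12 with library totals and 0.34 without control 5, its range with 1 library left out being -0.43 to 0.34. Relative to the secreted proteins, Foxa2 (-0.15) became 0.18 against Alb alone and 0.55 without control 5 (-0.51 to 0.55 with 1 library left out), Nr1h4 (0.13) became -0.20, -0.11 and -0.18 without control 6, control 7 and GOx-DOX-LGP 2 (-0.20 to 0.68), Nr1i2 (-0.23) became 0.095 against Alb alone, 0.11 without control 5 and 0.02 without GOx-DOX-LGP 1 (-0.62 to 0.11), and Onecut1 (0.26) became -0.48 and -0.08 without control 6 and control 7 (-0.48 to 1.35). The cause of these changes was not tested. Another prior count changed no sign of a member's difference in level. No paired analysis was possible because the groups share only the library number 5. With 3 libraries a group, exact tests could not go below p = 0.1, and at 1 to 12 reads the low levels of Foxa2, Nr1i3 and Onecut1 could not be ordered.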

Other observations

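Some relatives of the members outside the list, chosen after their values were seen, had other patterns. Not all relatives did. Nr1h3, a relative of Nr1h4, was highest in control 7, next in control 6 and lower in control 5 and all treated tumors. Its log2 fold change was -2.35 over 6 libraries (edgeR adjusted p = 0.247). The receptor Ppara and Nr5a2, described above, were likewise highest in controls 7 and 6. Cebpb, a relative of Cebpa active in the acute phase response, was measured at 19.8, 16.7 and 21.1 CPM in the controls (5, 6 and 7) and at 30.6, 22.7 and 30.4 CPM in the treated tumors (1, 2 and 5). Its groups did not overlap, as in 17.2% of the genes kept by the filter in either direction. Its log2 fold change was 0.54 (edgeR adjusted p = 0.281). Onecut2, a relative of Onecut1, was measured at 141, 149 and 224 CPM in the controls and at 112, 75.5 and 147 CPM in the treated tumors (log2 fold change -0.62), where Onecut1 did not exceed 0.346 CPM. Rxrb, an alternative partner of the receptors, had a log2 fold change of 0.01. Nrip1, a corepressor of nuclear receptors, was measured at 123, 29.5 and 28.2 CPM in the controls and at 65.7, 70.5 and 50.2 CPM in the treated tumors, so its order of libraries was that of Foxa1 for the controls, with a log2 fold change of 0.05 over 6 libraries (edgeR adjusted p = 0.970) and 1.14 without control 5 (edgeR adjusted p = 0.00422), in a fit that called 22.2% of all genes higher.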
